A study of Mus musculus with 12 samples.

Results

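The genes followed here are 10 receptor genes, 4 on the activating side, 5 on the inhibitory side and 1 ligand, in neutrophils of the injured liver and the control spleen. They were chosen by symbol: the Fc gamma receptors Fcgr1, Fcgr2b, Fcgr3 and Fcgr4, their signalling chain Fcer1g, the paired receptors Pirb, Lilrb4a, Cd300lf and Sirpa, and Cd274, which encodes PD-L1. Of the 10 genes, 9 have a row among the 48709 gene rows of the count table, and 8 are among the 12488 genes that passed the filter, which asks for a level above 1 CPM in 3 libraries or more, where CPM is a count relative to the total of its library. Fcgr1 had between 0 and 4 counts per library and was not tested, and the identifier of Lilrb4a has no row in the table.

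Neutrophils were sorted as Ly6G-high, Ly6C-intermediate, CD11b-positive and CD45-positive cells from male C57BL/6N mice of 8 to 10 weeks. The 3 control libraries are from spleens of untreated mice, and 4 and 5 libraries are from livers taken 24 hours and 72 hours after 1 intraperitoneal injection of carbon tetrachloride (CCl4, 1 mL/kg), a hepatotoxin. No liver neutrophils of untreated mice are among these libraries, livers were digested with enzymes and spleens were not, and so organ, preparation and injury cannot be told apart in the comparisons with the spleen. The labels do not say that replicates are separate animals, and p-values measure the spread between these samples.

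Fc gamma receptors bind the constant part of IgG and are the means by which neutrophils engage immune complexes and antibody-coated particles. Activating receptors signal through the ITAM, a tyrosine motif that recruits the kinase Syk, and the mouse receptors Fcgr1, Fcgr3 and Fcgr4 borrow it from the chain encoded by Fcer1g. Inhibitory receptors carry ITIMs in their own tails, which recruit the phosphatases SHP-1 (Ptpn6), SHP-2 (Ptpn11) and SHIP-1 (Inpp5d) and restrain that signal. Paired receptors are families in which activating and inhibitory members have similar ligand-binding parts, as the PIR-A proteins and PIR-B, the SIRP proteins and the CD300 proteins do.

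The counts have a limit that bears on every level and every difference below. Counts on genes were 1267089 to 3017403 per library, which is 2.71% to 3.18% of the uniquely aligned reads, and the strand option given to the counter for these stranded libraries is not given in the sources used here. A stranded library counted with the opposite option would give each gene the reads of the other strand only. Each of the 20 most counted genes shares exon bases with an antisense neighbour, as 39.8% of the tested genes do, and S100a9, which encodes an abundant neutrophil protein, ranged from only 215 to 3969 normalized CPM. Levels of different genes are therefore given as a description, and differences between libraries were tested gene by gene. Testing does not lift the limit. A gene that rose or fell below did so in the reads counted on it, and the strand of those reads is not known here. Exons of Fcgr2b and Cd274 overlap an antisense gene over 155 and 511 bases, and exons of Fcgr1, Fcgr3, Fcgr4, Fcer1g, Pirb, Cd300lf and Sirpa overlap none. The antisense partner of Fcgr2b, Gm38204, had between 0 and 6 counts per library, with differences of 0.44 (SE 1.05) at 24 hours and -0.12 (SE 1.03) at 72 hours on the log2 scale, and that of Cd274, AC119228.1, has no row in the count table.

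Positions are those of the GRCm38 annotation. Fcgr2b (chr1:170958617-170976547), Fcgr4 (chr1:171018920-171029761), Fcgr3 (chr1:171051174-171064935) and Fcer1g (chr1:171229572-171234365) are neighbours on chromosome 1, where Fcgr4 is on the forward strand and the others are on the reverse strand. Pirb is at chr7:3711409-3720391, Cd300lf at chr11:115116214-115133992, Sirpa at chr2:129592835-129632228, Cd274 at chr19:29367455-29388095 and Fcgr1 at chr3:96282909-96293969.

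Promoter windows of 250 bases before the RefSeq start are shown for the 2 genes that passed the test in a comparison, Pirb and Cd274, for Cd300lf, the inhibitory receptor set against Pirb below, and for Fcgr4, whose window holds a PU box and an interferon response core. The sequences are from RefSeq (GRCm38.p6), 5′ to 3′ on the strand of the gene, with capitals marking the motifs. The windows are chr7:3720383-3720632 (reverse strand) for Pirb, chr11:115133993-115134242 (reverse strand) for Cd300lf, chr1:171018676-171018925 (forward strand) for Fcgr4 and chr19:29367188-29367437 (forward strand) for Cd274.
Pirb: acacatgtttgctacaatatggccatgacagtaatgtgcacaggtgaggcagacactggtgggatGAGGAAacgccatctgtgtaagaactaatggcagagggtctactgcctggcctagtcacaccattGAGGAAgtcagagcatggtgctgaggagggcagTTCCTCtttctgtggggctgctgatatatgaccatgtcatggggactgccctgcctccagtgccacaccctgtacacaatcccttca
Cd300lf: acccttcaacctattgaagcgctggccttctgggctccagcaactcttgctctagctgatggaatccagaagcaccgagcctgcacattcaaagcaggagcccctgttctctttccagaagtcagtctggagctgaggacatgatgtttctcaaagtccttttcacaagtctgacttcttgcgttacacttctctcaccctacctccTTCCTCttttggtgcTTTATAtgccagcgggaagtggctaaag
Fcgr4: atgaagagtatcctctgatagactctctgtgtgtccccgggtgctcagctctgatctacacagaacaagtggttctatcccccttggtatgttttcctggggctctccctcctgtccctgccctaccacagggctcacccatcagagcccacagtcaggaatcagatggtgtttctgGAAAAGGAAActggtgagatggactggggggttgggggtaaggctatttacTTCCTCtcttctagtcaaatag
Cd274: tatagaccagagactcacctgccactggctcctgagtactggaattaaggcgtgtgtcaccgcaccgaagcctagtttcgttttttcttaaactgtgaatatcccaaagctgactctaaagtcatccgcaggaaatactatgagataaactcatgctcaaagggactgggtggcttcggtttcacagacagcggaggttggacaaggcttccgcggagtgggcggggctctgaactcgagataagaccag

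The windows were searched for 6 motifs on both strands. The PU box GAGGAA, the core bound by the myeloid factor PU.1, occurs in the windows of 5 of the 8 genes that have one (Fcgr1, Fcgr3, Fcgr4, Pirb and Cd300lf) and in 23.3% of 32851 promoter windows of this length. The Pirb window holds 3 PU boxes, at -185, -120 and -87, the Cd300lf window 1 at -43 and the Fcgr4 window 1 at -22. The interferon response core, a pair of GAAA runs with 2 bases between them, was found at -73 of Fcgr4 only, against 2.98% of all windows. The STAT motif TTCNNNGAA was found in Fcgr1 only (7.02% of all windows), and TATAAA in Cd300lf only (12.4%). The windows of Cd274, Fcer1g and Fcgr2b held none of the 6 motifs, the AP-1 site TGANTCA (6.75%) and the C/EBP pair TTGCGCAA (0.164%) occurred in no window of the 8 genes, and Sirpa and Lilrb4a have no window here. A match is a description of letters and not a binding site.

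In 24-hour neutrophils 1 of the 8 tested genes was called, Pirb, which fell. Called genes had an adjusted p below 0.05 (quasi-likelihood test of edgeR, Benjamini-Hochberg over all 12488 genes) and a log2 fold change of 0.5 or more in size, which 9.75% of all tested genes met in this comparison. In 72-hour neutrophils 1 of the 8 was called against the spleen, Cd274, which rose, beside 5.33% of all tested genes. Between 72 and 24 hours none of the 8 was called, beside 4.49% of all tested genes. Fcgr3, Fcgr4 and Cd300lf had an unadjusted p below 0.05 there, DESeq2 called Fcgr3 and limma-voom called none. Beside these shares a count of 1 in 8 is no result about the genes as a list. The 3 spleen libraries serve both liver comparisons, which are therefore not independent of each other. The median log2 fold change of the 8 genes was 0.14 at 24 hours, 0.53 at 72 hours and 0.47 between the times, and that of all tested genes was -0.23, -0.02 and 0.18. Of the genes called between the times, 36.7% were higher at 72 hours, and 25.6% were with upper-quartile scaling.

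**Figure D1:**
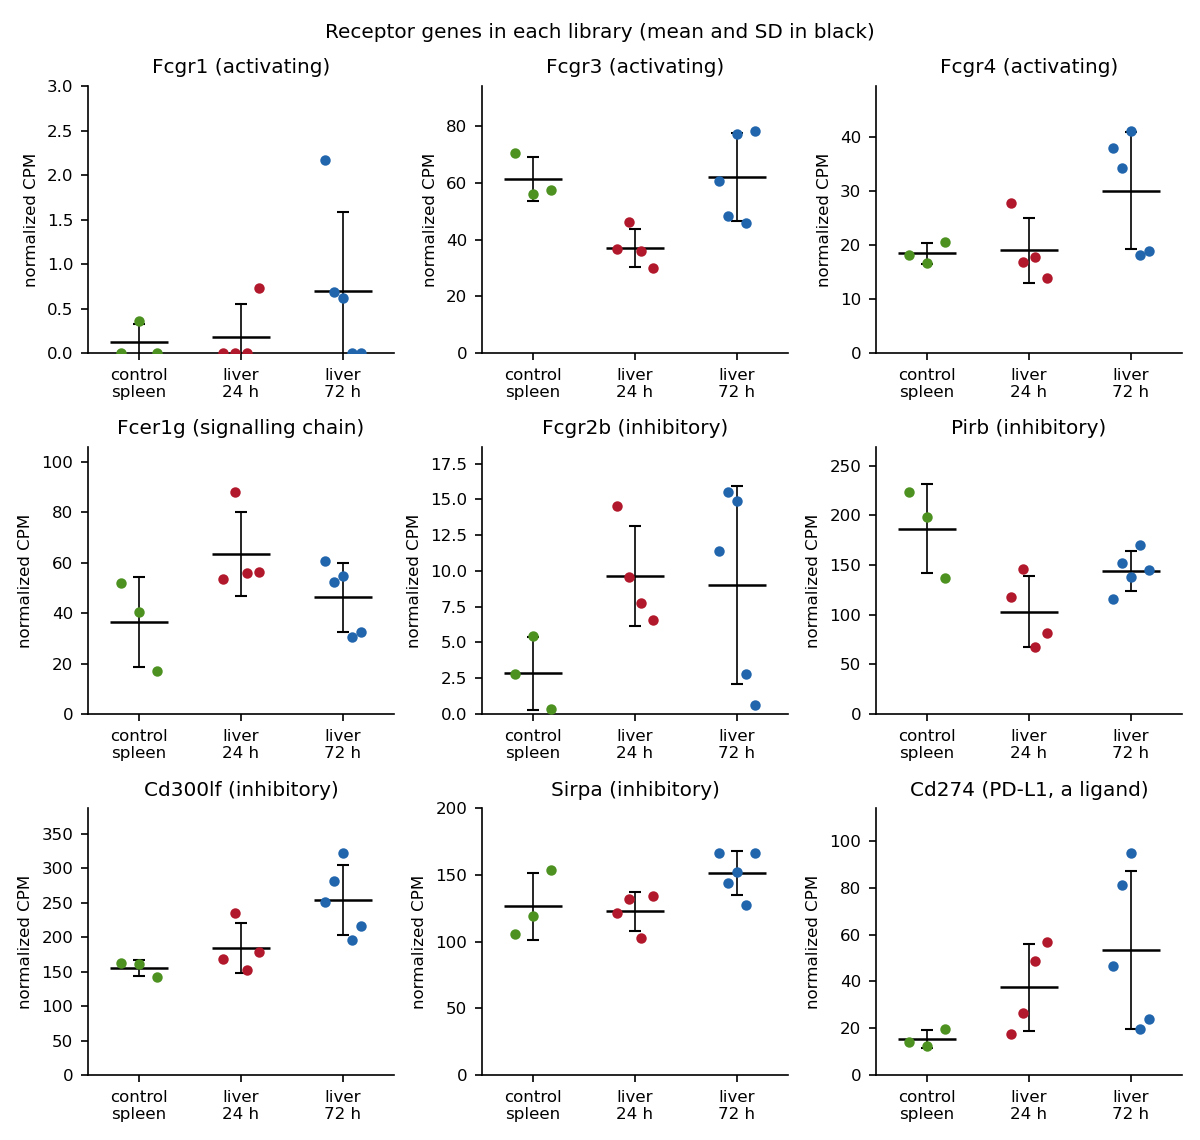
Normalized CPM (vertical axes, linear from 0, a scale for each gene) of 9 receptor genes in every library of control spleen (n = 3), liver at 24 hours (n = 4) and liver at 72 hours (n = 5). Each point is 1 library, in order of replicate number from left to right, the black line is the mean and the bar 1 SD, cut at 0. Pirb is lowest in 24-hour replicates 3 and 4 (67.2 and 81.7), and Cd274 is highest in 72-hour replicates 2 and 3 (81.2 and 95.02).

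Among the activating receptors, Fcgr3, the low-affinity IgG receptor of mouse neutrophils, was lower in every 24-hour library than in every spleen library. It measured 70.5, 56.2 and 57.6 normalized CPM in spleen replicates 1 to 3. The 24-hour libraries had 36.6, 46.2, 36.1 and 29.9 normalized CPM. The 72-hour libraries had 60.7, 48.4, 77.4, 45.9 and 78.5 normalized CPM and covered the spleen range. Its log2 fold change was -0.72 (SE 0.27, edgeR adjusted p = 0.099) at 24 hours against the spleen, 0.02 (SE 0.26, adjusted p = 0.989) at 72 hours, and 0.74 (SE 0.25, adjusted p = 0.087) between the times, so no difference passed the test. DESeq2 called the difference between the times (adjusted p = 0.0454).

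Fcgr4, the mouse receptor for IgG2a and IgG2b, split the 72-hour libraries. Its normalized CPM was 18.1, 16.7 and 20.6 in the spleen and 27.8, 16.8, 17.7 and 13.9 at 24 hours. At 72 hours replicates 1 to 3 had 38.0, 34.2 and 41.2 normalized CPM, above all spleen libraries, and replicates 4 and 5 had 18.1 and 18.8, inside the spleen range. In log2 terms the difference was 0.05 (SE 0.36, adjusted p = 0.956 in edgeR) at 24 hours and 0.72 (SE 0.34, adjusted p = 0.289) at 72 hours, and neither passed the test. Between the times it was 0.67 (SE 0.32, edgeR adjusted p = 0.234).

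Fcer1g, the chain that carries the ITAM for these receptors, was higher in all 24-hour libraries than in all spleen libraries. The spleen libraries had 52.0, 40.6 and 17.0 normalized CPM, with replicate 3 far below the others. The 24-hour libraries had 53.6, 88.2, 55.9 and 56.2, of which replicates 1, 3 and 4 lie just above the highest spleen value. The 72-hour libraries had 60.7, 52.5, 54.8, 30.6 and 32.4, with replicates 4 and 5 again the lowest. The log2 fold change was 0.81 (SE 0.35, edgeR adjusted p = 0.151) at 24 hours, 0.35 (SE 0.33, adjusted p = 0.686) at 72 hours and -0.45 (SE 0.30, adjusted p = 0.415) between the times. Fcgr1, the high-affinity IgG receptor, had 0, 1 and 0 counts in the spleen, 0, 0, 0 and 1 at 24 hours and 4, 2, 2, 0 and 0 at 72 hours. A floor of 3 counts in a library corresponds to 0.929 to 2.19 normalized CPM, so Fcgr1 was at or near the floor in all groups and its difference was not detectable at this depth.

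On the inhibitory side, Pirb, which encodes an ITIM receptor of myeloid and B cells, was the gene that passed the test at 24 hours. It had 224, 199 and 137 normalized CPM in the spleen, 118, 146, 67.2 and 81.7 at 24 hours and 115, 152, 138, 170.2 and 145 at 72 hours. The lowest spleen library, replicate 3, lies below the highest 24-hour library, replicate 2, so the groups overlap. The log2 fold change at 24 hours was -0.85 (SE 0.27, 95% interval -1.40 to -0.30, edgeR adjusted p = 0.0459), which is 0.554 of the spleen level. It was -0.37 (SE 0.25, adjusted p = 0.513) at 72 hours and 0.48 (SE 0.24, adjusted p = 0.256) between the times. The call at 24 hours was lost in 8 of 12 fits without a single library, where the adjusted p reached 0.196 (without spleen replicate 1), 0.141 without spleen replicate 2, and 0.0565, 0.116 and 0.121 without 24-hour replicates 1, 3 and 4. Without 72-hour replicates 1, 2 or 5 it was 0.0532, 0.0553 and 0.0553, the log2 fold change stayed between -1.07 and -0.69 in all 12, and it was -0.84 and -0.78 with the call lost under DESeq2 size factors and upper-quartile scaling.

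Spleen replicate 3, low in Pirb and Fcer1g, also stands apart in the sum of its neutrophil markers. The summed level of the 15 neutrophil markers was 2506 normalized CPM there and 11520 and 11345 in spleen replicates 1 and 2, against 1199 to 2933 at 24 hours and 2170 to 2835 at 72 hours. The 24-hour libraries lowest in Pirb, replicates 3 and 4, are also the 2 lowest in this sum, at 1199 and 1355. The 10 hepatocyte markers summed to 2.32 to 6.11 normalized CPM in the spleen, 14.9 to 19.8 at 24 hours and 4.54 to 32.5 at 72 hours, 9 T-cell markers to at most 7.07 and 7 NK-cell markers to at most 2.12 in any library. The neutrophil markers did not move together. In the spleen S100a9 ranged from 339 to 3969 and Ngp from 339 to 1895 normalized CPM, but Csf3r only from 463 to 569 and Cxcr2 from 284 to 367. Csf3r had 278 to 404 at 24 hours and 461 to 710 at 72 hours, and Cxcr2 159 to 491 and 312 to 500. At 24 hours 6 of the 13 neutrophil markers tested fell (S100a8, S100a9, Camp, Ngp, Ltf and Lcn2) and none rose, and at 72 hours 8 fell, these with Ly6g and Mmp8. Their part in the Pirb result was not tested. In bulk samples, fewer cells of a type and less RNA per cell cannot be told apart.

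Cd300lf, an ITIM receptor of the CD300 family that binds phospholipids of dying cells, did not pass the test in any comparison. The spleen libraries had 162, 162 and 142 normalized CPM, the 24-hour libraries 168, 236, 152 and 179 and the 72-hour libraries 250.5, 282, 323, 196 and 217. Each 72-hour library was above each spleen library, and of the 24-hour libraries only replicate 2 reached the 72-hour range. It differed from the spleen by 0.24 on the log2 scale (SE 0.23, edgeR adjusted p = 0.542) at 24 hours, 0.71 (SE 0.23, adjusted p = 0.0735) at 72 hours, and the times differed by 0.47 (SE 0.20, adjusted p = 0.194). DESeq2 and limma-voom called the 72-hour difference (adjusted p = 0.0249 and 0.0482), and it was 0.51 (adjusted p = 0.407) without 72-hour replicates 2 and 3.

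Fcgr2b, the inhibitory Fc gamma receptor, was low in all libraries. It measured 2.78, 5.44 and 0.322 normalized CPM in the spleen (6, 15 and 1 counts). The 24-hour libraries had 14.5, 9.60, 7.78 and 6.57 normalized CPM (9 to 23 counts), all above the spleen. The 72-hour libraries had 11.4, 15.5, 14.9, 2.78 and 0.649, so replicates 1 to 3 were above the spleen and replicates 4 and 5 within it. The log2 fold change was 1.76 (SE 0.77, edgeR adjusted p = 0.15) at 24 hours and 1.73 (SE 0.73, adjusted p = 0.212) at 72 hours, with 95% intervals of 0.17 to 3.35 and 0.21 to 3.25, and -0.03 (SE 0.62, adjusted p = 0.985) between the times. B cells also express Fcgr2b, and 5 of the 10 B-cell markers, Ms4a1 and Cd79b among them, were at 0 counts in all 24-hour libraries, while Cd79a had 25.5 to 61.2 normalized CPM there and Cr2 3.54 to 10.1. The sum of 10 B-cell markers was 60.3 to 79.1 normalized CPM in the spleen, 34.7 to 72.6 at 24 hours and 37.3 to 64.6 at 72 hours, and their part in the Fcgr2b values was not tested.

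Sirpa, the ITIM receptor for CD47, had intervals that included 0 in all 3 comparisons. The normalized CPM was 106, 119 and 154 in the spleen, 122, 132, 103 and 134 at 24 hours and 166, 144, 152, 127 and 167 at 72 hours. The log2 fold change was -0.04 (95% interval -0.51 to 0.42, edgeR adjusted p = 0.93) at 24 hours, 0.26 (-0.19 to 0.71, adjusted p = 0.626) at 72 hours and 0.30 (-0.11 to 0.72, adjusted p = 0.404) between the times. The estimate at 24 hours was 0.04 with upper-quartile scaling. Lilrb4a has no row under its identifier. Gm49339, a protein-coding gene annotated over 1846 of its exon bases on the same strand and looked at after its values were seen, may hold reads of Lilrb4a or be an older identifier of it, which was not settled here, and had 102 to 216 normalized CPM in the spleen, 109 to 132 at 24 hours and 120.0 to 246 at 72 hours, with no call in any comparison.

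Cd274, the ligand of the inhibitory receptor PD-1, was the gene that passed the test at 72 hours. It had 13.9, 12.3 and 19.6 normalized CPM in the spleen and 17.7, 26.4, 48.8 and 56.9 at 24 hours. The 72-hour libraries had 46.6, 81.2, 95.02, 19.5 and 24.0 normalized CPM. Replicates 1 to 3 at 72 hours were far above the spleen, and replicate 4 (19.5) lies just below the highest spleen library (19.6), so the groups overlap. The log2 fold change at 72 hours was 1.81 (SE 0.48, 95% interval 0.82 to 2.80, edgeR adjusted p = 0.0254), a 3.51-fold difference. At 24 hours it was 1.28 (SE 0.49, adjusted p = 0.101), and between the times 0.54 (SE 0.41, adjusted p = 0.48), so the 2 times were not shown to differ.

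The 2 highest Cd274 libraries, 72-hour replicates 2 and 3, differ from the rest in alignment. Their share of unaligned reads was 1.91% and 1.98%, against 49.6% to 50.7% in the other 10 libraries, and they had the most counts on genes of the 72-hour group, 2813970 and 3017403. Without both, the 72-hour difference in Cd274 was 0.98 (edgeR adjusted p = 0.36) and no gene of the 8 was called. The call was also lost without spleen replicate 1 (adjusted p = 0.122), spleen replicate 2 (0.148), 72-hour replicate 2 (0.0738) or 72-hour replicate 3 (0.077), with log2 fold changes between 1.496 and 1.75, and under limma-voom (adjusted p = 0.0601). Macrophages and Kupffer cells also express Cd274. Of their 14 markers, 7 were at 0 counts in all 72-hour libraries, among them Clec4f, Timd4, C1qa, C1qb and C1qc. The 14 summed to 107 to 166 normalized CPM in the spleen, 140 to 213 at 24 hours and 128 to 194 at 72 hours. Csf1r held the largest share of this sum, with means of 92.8, 141 and 137 in the 3 groups. Adgre1 had means of 6.9, 7.1 and 8.2, Vsig4 18.2, 12.1 and 8.74, and Cd68 13.1, 5.41 and 7.75. None of the 4 markers tested was called against the spleen at 72 hours. The 7 dendritic cell markers summed to 64.9 to 198, 18.3 to 70.8 and 75.9 to 140 normalized CPM in the 3 groups. The part of macrophages, Kupffer cells or dendritic cells in the Cd274 result was not tested.

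**Figure D2:**
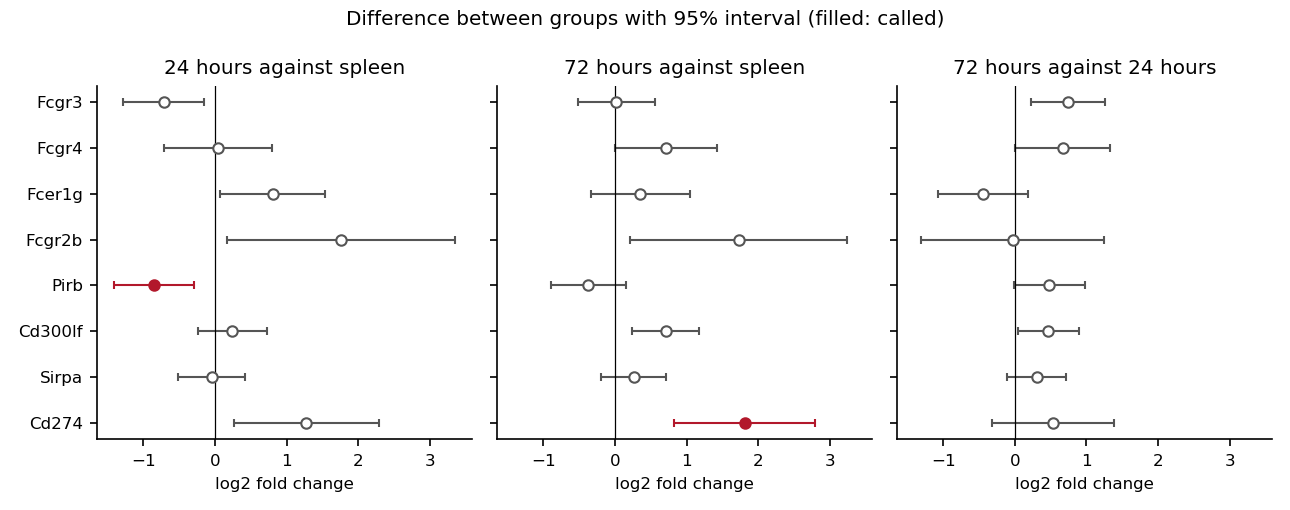
Log2 fold change (horizontal axis) of the 8 tested receptor genes in the 3 comparisons, with the 95% interval of the edgeR fit as a bar. Filled red points were called: Pirb at -0.85 at 24 hours and Cd274 at 1.81 at 72 hours, both against the spleen; open points were not called.

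Per kilobase of exon, Fcer1g had the highest mean level in each group and Fcgr1 the lowest. In the spleen the order of mean normalized CPM per kilobase was Fcer1g (41.8 ± 20.4, SD, n = 3), Pirb (41.7 ± 10.02), Fcgr3 (35.4 ± 4.55), Cd300lf (30.2 ± 2.17), Sirpa (25.7 ± 5.07), Fcgr4 (14.7 ± 1.57), Cd274 (4.22 ± 1.06), Fcgr2b (0.492 ± 0.442) and Fcgr1 (0.0467 ± 0.0808). The ranges over libraries of the first 3 overlap, as do those of Cd300lf and Sirpa and of Fcgr2b and Fcgr1, and the other 4 neighbours in the order are separate. At 24 hours Fcer1g (72.6 ± 18.9, n = 4) was separate from Cd300lf (35.7 ± 7.06), which was separate from Sirpa (25.0 ± 2.94). The mean of Pirb (23.1 ± 7.95) came after both, where it stood ahead of them in the spleen. The range of Pirb overlapped those of Cd300lf and Sirpa in the spleen and at 24 hours, so this change of place holds for the means only. Fcgr3 (21.4 ± 3.87), Fcgr4 (15.1 ± 4.81) and Cd274 (10.3 ± 5.09) followed, each overlapping its neighbour, and then Fcgr2b (1.66 ± 0.603) and Fcgr1 (0.0704 ± 0.141), each separate. At 72 hours only the step from Cd274 (14.7 ± 9.33, n = 5) to Fcgr2b (1.56 ± 1.19) was separate, below Fcer1g (52.9 ± 15.7), Cd300lf (49.2 ± 9.84), Fcgr3 (35.8 ± 8.91), Pirb (32.2 ± 4.47), Sirpa (30.8 ± 3.39) and Fcgr4 (23.9 ± 8.66). Spreads in this paragraph are SDs between the libraries of a group.

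The distance between the activating and the inhibitory side as a whole overlapped between the 3 groups. The mean log2 CPM of the 3 tested activating genes minus that of the 4 tested inhibitory receptors, taken within each library, was -0.75 ± 0.24 (SD, n = 3) in the spleen, -0.95 ± 0.16 (n = 4) at 24 hours and -0.87 ± 0.25 (n = 5) at 72 hours. The group ranges, -1.03 to -0.57, -1.07 to -0.71 and -1.16 to -0.53, overlap, and no test was made of this score over the chosen genes. Ratios of 2 genes, within a side and across the sides, separated some of the groups. The ratio of Cd300lf counts to Pirb counts in the same library, which no scaling between libraries can change, was 0.723 to 1.04 in the spleen, 1.43 to 2.26 at 24 hours and 1.15 to 2.34 at 72 hours, so each liver library was above each spleen library. The ratio of Fcer1g counts to Fcgr3 counts was 0.296 to 0.737 in the spleen, 1.47 to 1.91 at 24 hours and 0.413 to 1.09 at 72 hours, so the 24-hour libraries were separate from both other groups. Across the sides, Fcgr3 counts to Fcgr2b counts were 10.3 to 179 in the spleen, 2.52 to 4.81 at 24 hours and 3.11 to 121 at 72 hours. Fcgr4 to Fcgr2b was 3.07 to 64, 1.75 to 2.27 and 2.2 to 29. In both, the 24-hour libraries were below all spleen libraries and overlapped the 72-hour range. These 2 ratios rest on 1 to 48 Fcgr2b counts per library. Within the inhibitory side, Pirb to Sirpa was 0.889 to 2.12 in the spleen, 0.609 to 1.10 at 24 hours and 0.694 to 1.34 at 72 hours, and all groups overlapped. Fcgr3 to Fcgr4 was 2.80 to 3.90, 1.32 to 2.75 and 1.41 to 4.17 in the same order. The pairs named here were picked from the 28 possible pairs after their values were seen, and the ratios are given without a test.

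**Figure D3:**
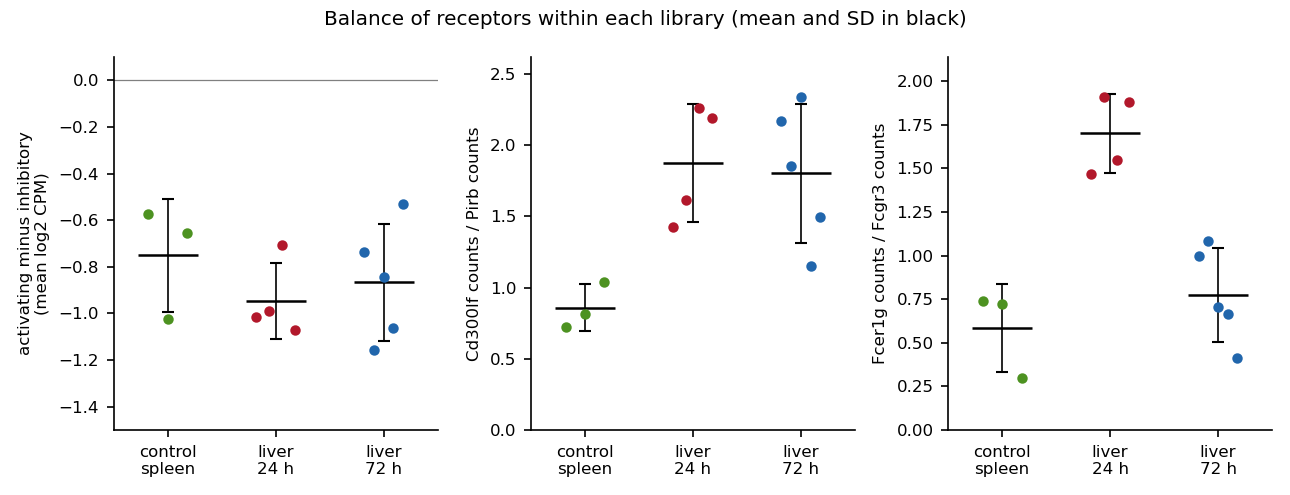
Left, mean log2 CPM of activating minus inhibitory receptors within each library; middle and right, ratios of counts of 2 genes in the same library, on linear axes from 0. Points are libraries of control spleen (n = 3), liver at 24 hours (n = 4) and liver at 72 hours (n = 5), with mean and SD in black. The left panel overlaps across groups, Cd300lf to Pirb is at most 1.04 in the spleen and at least 1.15 in the liver, and Fcer1g to Fcgr3 is at least 1.47 at 24 hours and at most 1.09 elsewhere.

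Over the 12 libraries, which share group and depth differences, 20 of the 28 pairs of genes had a positive Pearson r of log2 CPM. The highest was that of Fcer1g and Fcgr2b (r = 0.80), and Pirb and Cd274 had r = -0.53. The genes whose pattern was most like that of Pirb among 5034 candidates with a mean of at least 10 CPM were Sf3b2 (r = 0.93), Alox5 (r = 0.93) and Ap1m1 (r = 0.92). Those most like Cd274 were Ninj1 (r = 0.96), Dnajc8 (r = 0.95) and E130208F15Rik (r = 0.95). Exons of Sf3b2 and E130208F15Rik overlap genes on the opposite strand over 194 and 1733 bases.

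Of 15 tested genes among the other activating paired receptors and adaptors, 1 rose and 3 fell at 24 hours, 1 rose at 72 hours and 3 were higher at 72 than at 24 hours, beside 9.75%, 5.33% and 4.49% called among all tested genes. The median log2 fold change of the list was -0.55, 0.27 and 0.87, against -0.23, -0.02 and 0.18 over all genes. Tyrobp, which encodes DAP12, the ITAM adaptor of the TREM, CD300 and SIRP-beta receptors, had 182, 159.9 and 124 normalized CPM in the spleen, 92.1, 95.4, 79.2 and 67.1 at 24 hours and 127, 157, 193, 161 and 212 at 72 hours. All 24-hour libraries were below all others. Tyrobp fell at 24 hours (log2 fold change -0.89, SE 0.24, edgeR adjusted p = 0.0201) and was higher at 72 than at 24 hours (1.02, SE 0.22, adjusted p = 0.0106). The call between the times held in 12 of 12 fits without 1 library, and the call at 24 hours ended without spleen replicates 1 or 2 or without 24-hour replicate 4 (adjusted p up to 0.117). Both Tyrobp calls were lost when only genes without opposite-strand exon overlap were tested (0.0804 and 0.0615). Fcer1g, the other ITAM adaptor measured here, had a log2 fold change of 0.81 at 24 hours that did not pass the test. Tyrobp and Fcer1g were not compared with each other in a test.

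Trem1, which encodes a DAP12-coupled receptor that amplifies inflammatory responses, rose at both times. It had 18.6, 23.6 and 25.1 normalized CPM in the spleen, 37.5 to 61.8 at 24 hours and 41.0 to 135 at 72 hours. It rose by 1.19 on the log2 scale (SE 0.34, edgeR adjusted p = 0.0305) at 24 hours and 1.89 (SE 0.34, adjusted p = 0.001) at 72 hours, and the 72-hour call held in 12 of 12 fits without 1 library, while the 24-hour call was lost without spleen replicates 1 or 2 or 24-hour replicates 1, 2 or 4 (adjusted p up to 0.131) and under limma-voom (0.0572). The SIRP-beta gene Sirpb1c, an activating counterpart of Sirpa, fell at 24 hours (-2.35, SE 0.51, edgeR adjusted p = 0.00494), and this call held in 12 of 12. It had 11.9 to 19.9 normalized CPM in the spleen and 0.707 to 4.80 at 24 hours. The 24-hour libraries held only 4, 8, 1 and 5 counts of Sirpb1c, near the floor of 3, so the size of its fall rests on few reads. Its relative Sirpb1b fell at 24 hours (-1.21, adjusted p = 0.047) and was higher at 72 than at 24 hours (1.25, adjusted p = 0.0447), and each of the 2 calls ended without spleen replicates 1 or 2 or 24-hour replicates 2, 3 or 4, among others (7 and 10 of 12 fits, adjusted p up to 0.21 and 0.108) and under upper-quartile scaling and limma-voom. Cd300lb, an activating counterpart of Cd300lf, was higher at 72 than at 24 hours (0.87, adjusted p = 0.0399), a call that held only without spleen replicates 1 or 3 or 72-hour replicate 4 (adjusted p up to 0.122 in the 9 others), and that was lost in 5 of 10 other alternatives (up to 0.159), among them without 72-hour replicates 2 and 3 together. Near-identical copies within the SIRP-beta and PIR-A families can share reads, and 6 of the 23 genes of this list have no row in the table.

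Among 14 other inhibitory paired receptors tested, 2 fell at 24 hours, 1 rose and 1 fell at 72 hours and 2 were higher at 72 than at 24 hours, beside 9.75%, 5.33% and 4.49% called among all tested genes. The medians were -0.17, 0.06 and 0.65 beside -0.23, -0.02 and 0.18 over all genes. Ceacam1, an ITIM receptor of the carcinoembryonic antigen family, fell at 24 hours by 2.10 on the log2 scale (SE 0.44, edgeR adjusted p = 0.00361), with 53.8, 44.9 and 15.1 normalized CPM in the spleen and 4.24 to 12.6 at 24 hours, and this call held in 12 of 12 fits without 1 library. At 72 hours Ceacam1 fell by 1.39 (SE 0.39, adjusted p = 0.0375), with the lowest spleen library again replicate 3, and that call was lost without spleen replicates 1 or 2 or 72-hour replicates 1, 3 or 5 (adjusted p up to 0.297), under limma-voom and without 72-hour replicates 2 and 3 together (up to 0.131). Cd101, an inhibitory receptor found on mature neutrophils, fell at 24 hours (-1.67, SE 0.35, adjusted p = 0.00366) and was higher at 72 than at 24 hours (1.57, SE 0.32, adjusted p = 0.00822), with 52.4 to 132 normalized CPM in the spleen, 13.8 to 40.1 at 24 hours and 58.0 to 101 at 72 hours, and both calls held in 12 of 12 fits. Cd300a, an ITIM receptor beside Cd300lf on chromosome 11, was higher at 72 than at 24 hours (1.06, SE 0.28, adjusted p = 0.0317), a call lost without 24-hour replicates 1, 2 or 3 or 72-hour replicates 1, 2 or 3 (adjusted p up to 0.106), without 72-hour replicates 2 and 3 together and with genes without opposite-strand exon overlap (up to 0.195). Siglecf, a sialic acid receptor best known from eosinophils, rose at 72 hours (1.43, SE 0.40, adjusted p = 0.0374), with 7.89 to 10.3 normalized CPM in the spleen and 13.8 to 31.3 at 72 hours, a call lost without spleen replicates 1 or 2 or 72-hour replicates 3, 4 or 5 (adjusted p up to 0.169), and under limma-voom, with the replicate block and without 72-hour replicates 2 and 3 together (up to 0.112). Of the 8 eosinophil and basophil markers, 5 were at 0 counts in all 72-hour libraries (Epx, Prg2, Il5ra, Mcpt8 and Ms4a2), while Ccr3 and Cpa3 were not. The sum of the 8, which includes Siglecf itself, was 8.81 to 12.2 normalized CPM in the spleen, 8.49 to 19.8 at 24 hours and 14.9 to 32.4 at 72 hours. The part of such cells in the Siglecf values was not tested.

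**Figure D4:**
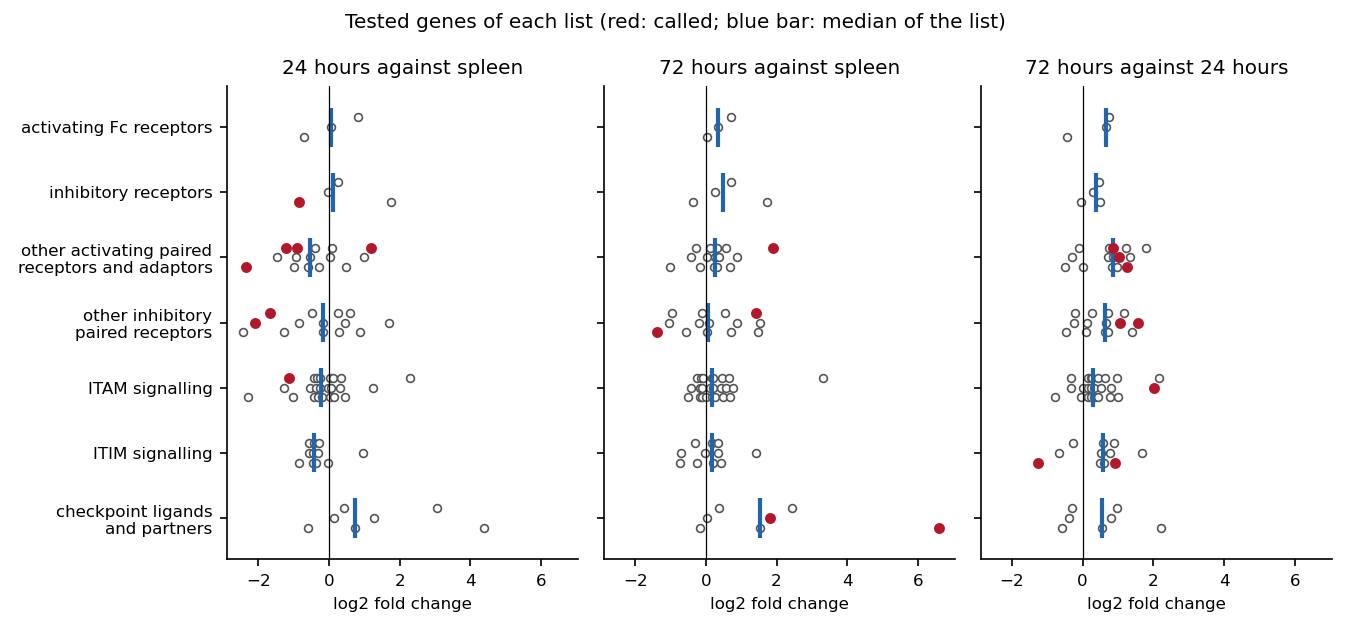
Log2 fold change (horizontal axis) of each tested gene of 7 lists of receptors, signalling genes and ligands in the 3 comparisons; red points were called, open points were not, and blue bars are list medians. The other activating paired receptors have a median of -0.55 at 24 hours against the spleen and 0.87 at 72 against 24 hours; the point at 6.60 is Havcr2, whose spleen libraries were all at 0 counts, so that its fitted value is no bound.

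Among all tested genes 9.75%, 5.33% and 4.49% were called in the 3 comparisons, and the signalling genes listed for both sides are read beside these shares. Of 24 tested genes of the ITAM pathway (Src-family kinases, Syk, adaptors and phospholipases), 1 fell at 24 hours, Card9 (-1.13, SE 0.34, edgeR adjusted p = 0.0376), an adaptor downstream of Syk, a call lost without spleen replicates 1 or 2 or 24-hour replicates 1, 2 or 4 (adjusted p up to 0.199), under limma-voom and with the replicate block (up to 0.0955). None was called at 72 hours against the spleen in edgeR (3 had an unadjusted p below 0.05, limma-voom called none and DESeq2 called 1, Vav1). Between the times Tec, a kinase of 1 to 39 counts per library, was higher at 72 hours (2.02, SE 0.57, edgeR adjusted p = 0.0463), a call that held only without spleen replicate 3 or 72-hour replicate 4 (adjusted p up to 0.137 in the others) and was lost in 5 of 10 other alternatives (up to 0.205), among them limma-voom and without 72-hour replicates 2 and 3 together. The ITIM list has 11 tested genes and is broader than the phosphatases that ITIMs recruit. It also holds the receptor phosphatases Ptprc and Ptprj, and Cd47, the ligand of Sirpa, so its counts and median are not those of ITIM signalling alone. None of the 11 was called against the spleen at either time by edgeR, DESeq2 or limma-voom (in edgeR 3 at 24 hours and 1 at 72 hours had an unadjusted p below 0.05). At 24 hours 10 of the 11 had a log2 fold change below 0, with a median of -0.43 beside -0.23 over all tested genes. Between the times Ptpn6, which encodes SHP-1, was higher at 72 hours (0.93, SE 0.23, adjusted p = 0.0248) and the receptor phosphatase Ptprj was lower (-1.26, SE 0.35, adjusted p = 0.0399). Exons of Ptpn6 and Card9 overlap genes on the opposite strand over 195 and 87 bases. The call of Ptpn6 was lost without 24-hour replicates 1, 3 or 4 or 72-hour replicates 1, 2 or 3 (adjusted p up to 0.0745) and without 72-hour replicates 2 and 3 together (0.114), and that of Ptprj without spleen replicate 2, 24-hour replicates 1 or 2 or any 72-hour replicate but 2 (adjusted p up to 0.132), under limma-voom and without 72-hour replicates 2 and 3 together (up to 0.105).

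Of 7 tested checkpoint ligands and partners, Cd274, already given above, and Havcr2 rose at 72 hours, beside 5.33% called among all tested genes. Havcr2, which encodes the receptor TIM-3, had 0 counts in all 3 spleen libraries, 0, 0, 2 and 5 at 24 hours and 10, 34, 27, 2 and 1 at 72 hours. Its 72-hour mean of 5.51 normalized CPM was 4.80-fold the floor of 3 counts per spleen library, which is a lower bound for the difference. With 0 spleen counts, Havcr2 passed the filter only through liver libraries, so its edgeR adjusted p of 0.0119 is no separate support. The call was lost without spleen replicates 1 or 2 (adjusted p up to 0.0634). At 72 hours replicates 4 and 5, with 2 and 1 counts, were again the lowest of the group and below that floor. Without 72-hour replicates 2 and 3 the Havcr2 call was also lost (adjusted p = 0.146), the mean of the others was 2.49 normalized CPM and the bound fell to 2.17-fold. None of the 7 was called at 24 hours by edgeR, DESeq2 or limma-voom, where 3 had an unadjusted p below 0.05 in edgeR. Of the 4 tested genes among 13 other Fc receptors, none was called by edgeR in any comparison. Pigr, which carries IgA across epithelia, had 0 counts in all spleen libraries, 0 to 5 at 24 hours and 1 to 16 at 72 hours. It passed the filter only through liver libraries. Its unadjusted p in edgeR was below 0.05 against the spleen at both times, and DESeq2 and limma-voom called it at 72 hours. At such low counts these p-values are no separate support. The part of other liver cells in the Pigr counts was not tested.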

How the data were processed

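RNA of sorted neutrophils was sequenced from 3 spleens of untreated mice and from livers 24 hours (4 libraries) and 72 hours (5 libraries) after CCl4. Per the submitters' processing notes the reads were aligned with STAR 2.7.9a to GRCm38. The authors counted reads per gene with HTSeq-count and deposited raw counts, without normalization, filter or pooling. The annotation release and strand option are not given in the sources used here. All columns of the table belong to a sample of the series.

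Counts were analysed in R 4.3.3. The 5 summary rows were left out, 48349 of 48709 gene rows matched GENCODE M21 by identifier, and genes above 1 CPM in at least 3 libraries were kept. Libraries were scaled by TMM factors, and edgeR 4.0.16 (quasi-likelihood) compared the groups pairwise in 1 fit of all 12 libraries. Called genes had a Benjamini-Hochberg adjusted p below 0.05 and a log2 fold change of 0.5 or more in size. Normalized CPM are counts relative to the scaled library totals, log2 CPM used a prior count of 2, and the floor was 3 counts per library. The fit was tested on simulated data. The alternatives were other scalings and filters, DESeq2 1.42.0, limma-voom (limma 3.58.1), fits of 2 groups, a replicate block, other fold limits, genes without opposite-strand exon overlap and leaving out each library. The text names the members, their antisense partners, the called genes of each list (at most 4 per list and comparison with values) and, for called members, the 3 genes with the most similar pattern. Members and lists were chosen with earlier results of these data known. Counting intervals and floors cover counting error only.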

Additional observations from a re-analysis of the deposited data

Results flagged for a closer look

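Groups of 4 and 5 libraries were examined for a library far from the others in 18 combinations of receptor gene and group. Chance alone marks about 1 in 20 where values are normally spread. Fcer1g in 24-hour replicate 2 stood at 88.2 normalized CPM, far above the other libraries of its group at 53.6 to 56.2. Fcgr1 in 24-hour replicate 4 stood at 0.729 normalized CPM, which is 1 count, with 0 counts in the other libraries of the group. Such a pattern is always marked, so the rate of 1 in 20 does not apply to it.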

How the results depend on the processing

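Of 1437 recomputed log2 fold changes of the named genes, 1289 kept their side of the threshold. Most of the 1437 belong to comparisons not called in the main test, so this share does not measure how firm the calls are. Without single libraries the calls of Pirb at 24 hours and Cd274 at 72 hours were lost in 8 and 4 of 12 fits. No called value changed sign. The gap between activating and inhibitory receptors moved by less than 1 SD in each group under other scalings and without single libraries (-0.84 to -0.62 in the spleen, -1.03 to -0.90 at 24 hours, -0.95 to -0.80 at 72 hours). At 24 hours the receptor genes called, 1 in the main test, were 0 with DESeq2 size factors, upper-quartile scaling, only the 2 groups compared, a log2 fold change limit of 1 or genes with no opposite-strand exon overlap, 3 with no filter on low counts (Cd274, Fcgr2b and Pirb), and 0 to 1 without single libraries. At 72 hours they were 2 with DESeq2 (Cd274 and Cd300lf), 0 with genes without opposite-strand overlap, which leaves out Cd274, and 0 to 2 without single libraries. Between the times DESeq2 called 1. The restriction to genes without opposite-strand overlap tests fewer genes and left 552, 360 and 143 called genes in the 3 comparisons, and DESeq2 called 986 between the times. Without single libraries the counts over all genes ranged from 575 to 1320 at 24 hours (lowest without spleen replicate 1), 314 to 835 at 72 hours (lowest without spleen replicate 2) and 182 to 796 between the times (lowest without 24-hour replicate 1). Without both 72-hour replicates of low unaligned share, an alternative chosen after seeing the data, 0 receptor genes were called at 24 or 72 hours, and 287 and 197 genes in all at 72 hours and between the times. For the other changes the cause was not tested. Low counts limit Fcgr1 and Fcgr2b.

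A replicate block, with the shared replicate numbers as a term, called 2 receptor genes at 24 hours (Fcgr2b and Pirb), 3 at 72 hours (Cd274, Fcgr2b and Cd300lf) and 0 between the times, and 1302, 874 and 599 genes in all. Nothing says that equal numbers mark shared animals or days. Deviations from the group means correlated at -0.12 to 0.13 between libraries of the same number and at -0.15 to 0.16 between others, and 2 of 12 libraries correlated best with their own number, so the numbers were not taken to pair the samples.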
